A study of Homo sapiens with 10 samples.

Results

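The metallothionein genes were followed through the hepatic differentiation of H1 cells, a widely used line of human embryonic stem cells. Members were chosen by gene symbol. The rule names 7 symbols, of which MT2A and MT1X, 2 of the 12125 genes of the deposited table, have a row, and MT1E, MT1F, MT1G, MT1H and MT1M have none by symbol or by Ensembl identifier. The 10 libraries each stand for 1 day of the course, with no replicate. Day 0 was the undifferentiated H1 culture in mTeSR1 medium with no added agent. Days 1, 2 and 3 were cultures with Activin A at 100 ng per ml in RPMI medium with the B27 supplement free of insulin. Days 5 and 7 had FGF4 at 30 ng per ml and BMP2 at 20 ng per ml, and days 9 and 11 had HGF and KGF at 20 ng per ml each, both in RPMI with the complete B27 supplement. Days 13 and 21 are labelled with Oncostatin M (OSM), an IL-6 family cytokine given at 20 ng per ml in a hepatocyte culture medium. By the timing of the written protocol, day 13 instead closes the HGF and KGF step. All cultures are of 1 cell line and no library here is of a culture kept without the agents past day 0, so that agent, basal medium and time in culture cannot be told apart in any comparison with day 0.

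Metallothioneins are small intracellular proteins that bind zinc and copper ions through cysteine residues, and they also bind cadmium and scavenge reactive oxygen species. Their genes lie side by side on the long arm of chromosome 16. Zinc raises their transcription through MTF1, a zinc-sensing transcription factor that binds metal response elements, and glucocorticoids and cytokines of the acute phase response raise it too. Liver, and fetal liver in particular, is known as a tissue rich in metallothioneins. MT2A is the gene of the ubiquitous metallothionein-2, and MT1X is one of several genes that encode forms of metallothionein-1.

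The coding sequences are shown because they are what makes the pair metallothioneins. They are those of transcripts ENST00000245185 (MT2A) and ENST00000394485 (MT1X) of GENCODE release 29, joined from 3 exons each on the plus strand of chromosome 16 of GRCh38 between chr16:56608656-56609351 (MT2A) and chr16:56682541-56684046 (MT1X) without the stop codon, and capitals mark the codons TGC and TGT, which encode cysteine.
MT2A: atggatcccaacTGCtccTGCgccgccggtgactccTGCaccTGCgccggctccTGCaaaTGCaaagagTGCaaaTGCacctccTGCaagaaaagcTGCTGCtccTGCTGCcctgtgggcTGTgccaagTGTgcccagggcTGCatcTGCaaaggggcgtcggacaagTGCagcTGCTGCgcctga
MT1X: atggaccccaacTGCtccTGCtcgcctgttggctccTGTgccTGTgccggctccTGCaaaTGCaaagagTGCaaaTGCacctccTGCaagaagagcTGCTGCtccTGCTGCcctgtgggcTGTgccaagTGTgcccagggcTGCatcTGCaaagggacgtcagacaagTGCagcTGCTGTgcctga
Each holds 61 codons before the stop, of which 20 (32.8%) are TGC or TGT, and all 20 stand at the same positions in both genes. Over the 186 bases, stop codon included, 172 (92.5%) are alike. Such likeness bears on the measurement, since a short read can match several metallothionein transcripts. Of the stretches of 25 bases in the 786-base MT2A transcript, 14.4% also occur in a transcript of another metallothionein gene or pseudogene, and of those in the 450-base MT1X transcript 23.2% do. For stretches of 50 bases the shares are 4.88% and 15.96%, and for stretches of 100 bases they are 0%. How reads that match several of these genes were divided was not tested, and the values of both genes carry that uncertainty. In GENCODE release 29 MT1X also overlaps the noncoding gene AC026461.1 on the same strand, whereas MT2A overlaps no other annotated gene.

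Both metallothioneins were highest in the undifferentiated stem cells and all but gone after the cells had been in Activin A medium for 2 days. The values are GC-normalized whole numbers that the authors deposited, on a scale where the median gene of a library stands at 81 or 82 and the highest at 18734. MT1X had a value of 492 on day 0, 32 on day 1, 1 on day 2 and 1 on day 3, was listed at 0 on days 5, 7, 9, 11 and 13, and stood at 1 on day 21. At day 0 it lay above 93.2% of all genes of the library. MT2A had 130 on day 0, above 65.2% of genes, then 26 on day 1 and 2 on day 2, and was listed at 0 on days 3, 5 and 7. It had a value of 1 on day 9, was listed at 0 on day 11, and stood at 8 on day 13 and 10 on day 21. Day 0 is thus the high sample for both genes, day 1 is intermediate, and from day 2 to day 21 neither gene exceeds 10. Levels of the pair cannot be set against each other within a library, because it is not known whether the values were corrected for transcript length. The shares of genes below each member on day 0 carry the same limit.

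**Figure D1:**
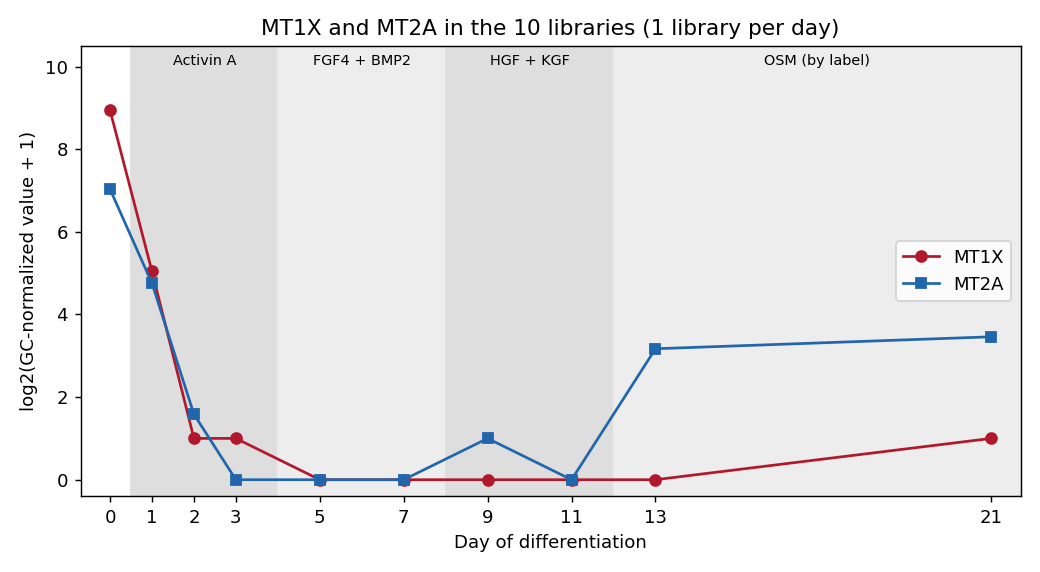
The y axis gives log2(GC-normalized value + 1) and the x axis the day of differentiation for MT1X (circles) and MT2A (squares), 1 library per point and no error bars, over shaded bands for the agent named in the sample labels. Both genes drop from their day 0 values of 492 and 130 to 1 and 2 on day 2, and MT2A alone stands at 8 and 10 on days 13 and 21.

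The table itself sets a limit on this pattern. Every gene in it reaches at least 26 in at least 2 libraries, and the second highest value is 32 for MT1X and exactly 26 for MT2A. The pair is therefore in the table only through days 0 and 1, so that members that passed had to be high at some time, and a metallothionein below that level on all days would have no row. Of the 12125 genes, 843 are listed at 0 in at least 1 library, and 17 are listed at 0 on all of days 5, 7, 9 and 11. MT1X is among them, whereas MT2A has its value of 1 on day 9. The totals of the libraries lie between 2330948 and 2362740, so the files do not show the depth, and an entry of 0 or 1 says only that little or nothing was assigned to the gene.

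From day 0 to day 1 the values fell 5-fold for MT2A (130 to 26) and 15.4-fold for MT1X (492 to 32). On the log2(value + 1) scale, used for all changes here, these are differences of -2.28 and -3.90. With 1 library per day there is no replicate and no test. As a measure of how far libraries can differ, the standard deviation (SD) of the differences between days 9 and 11, which share a medium, was taken over the 500 genes nearest in level, and it was 0.40 for MT2A and 0.31 for MT1X. It is a low measure, since any other pair of days may differ more. A gene was called changed at a difference of at least 2, which is 4-fold, where the larger value was at least 50. Both members were called lower, beside 0.811% of the 8629 genes tested (1.02% were called higher), and 37 genes fell further than MT2A and 3 further than MT1X. The median difference of the pair was -3.09, against 0.01 over all genes tested. These are descriptions, since the genes were picked with the results of these libraries known.

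Values were lower still on day 2 than on day 1. MT2A went from 26 to 2, a difference of -3.17, and MT1X from 32 to 1, a difference of -4.04. Neither had a value of 50 on these days, so that neither entered the count of called genes, which held 0.291% of 8588 genes as lower and 1.12% as higher. The SD between days 9 and 11 at such levels was 1.12 and 1.24. Both steps are larger than that spread, but they rest on single libraries and on values of 1 and 2 whose relative error is unknown.

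Over the first days as a whole, from day 0 to day 2, the difference was -5.45 for MT2A and -7.95 for MT1X, and both were called lower, beside 1.63% of the 8798 genes tested. No tested gene fell further than MT1X, and 5 fell further than MT2A. This order is a description, since the pair is in the table only through days 0 and 1. It also rests on day 2 values of 1 and 2, and the interval was chosen after seeing the data. By day 3, the day of definitive endoderm, MT2A was listed at 0 and differed from day 0 by -7.03, while MT1X was unchanged from day 2 at a value of 1. Over that interval 2.16% of 8934 genes were called lower, both members among them, and the median of the pair was -7.49 against -0.06 for all genes tested. The size of these differences depends on the constant added before the logarithm. With 0.1 added in place of 1, the difference of MT1X on day 2 was -8.81, and with 5 added it was -6.37.

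**Figure D2:**
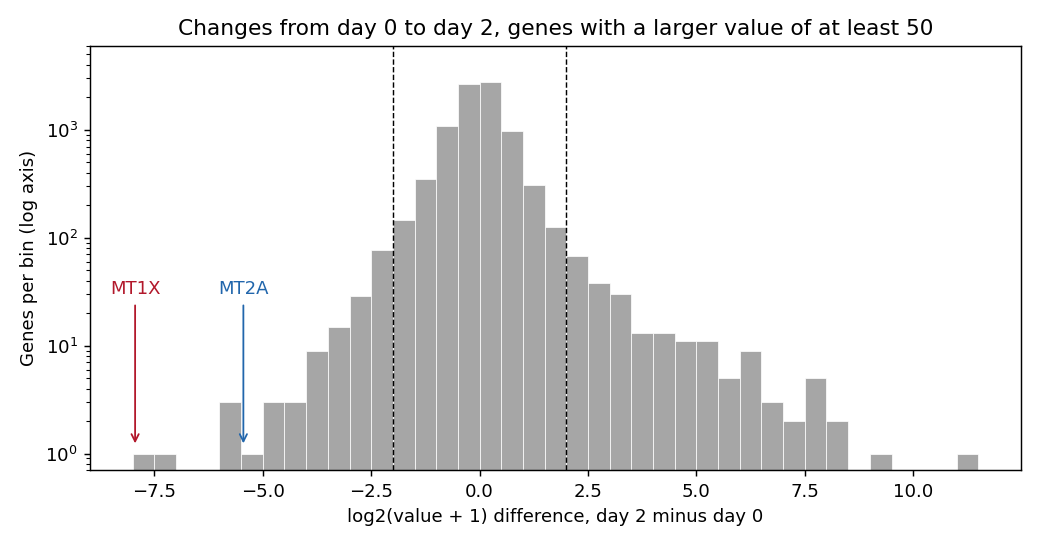
The histogram counts genes per bin of 0.5 (y, log axis) by their log2(value + 1) difference between day 2 and day 0 (x) for the 8798 genes with a larger value of at least 50, with dashed lines at the differences of -2 and 2 used for calls. MT1X, at -7.95, lies in the lowest occupied bin and MT2A, at -5.45, has 5 genes below it. Both genes are in the table only through days 0 and 1, so their places are descriptions.

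Set against the highest of all later libraries from day 2 on, the day 0 value of MT1X was 7.95 log2 units higher, more than for any other of the 10746 genes that reach 50 in some library. The next gene, the noncoding RNA MIAT, named after its values were seen, had a difference of 4.66, with 781 on day 0 and 30 at most from day 2 on. MT2A was ninth in this order with a difference of 3.57, because of its value of 10 on day 21. This order was not among the planned comparisons and takes the shape already seen in the pair. It is a description, since the pair is in the table only through days 0 and 1.

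At the hepatic stages the metallothioneins stayed low. From day 3 to day 13 neither member was high enough to be tested, while 7.8% of 9298 tested genes were called higher and 5.6% lower. MT2A went from 0 to 8 and MT1X from 1 to 0. The step of MT2A from 0 on day 11 to 8 on day 13 is 3.17 on the log2(value + 1) scale, and the SD between days 9 and 11 over the 500 genes nearest in level, none with a mean above 8.38, was 1.51. With 5 added before the logarithm, the difference of MT2A from day 3 to day 13 shrank to 1.38. From day 13 to day 21 MT2A went from 8 to 10, a difference of 0.29 beside an SD of 0.97, and MT1X from 0 to 1. No change of either gene could be read between these days. At day 21 MT2A was still at a value 13-fold below day 0, a difference of -3.57, and MT1X at a difference of -7.95. Both were called lower than on day 0, as were 11.5% of the 9698 genes tested, so that over the whole course 376 genes fell further than MT2A and 25 further than MT1X.

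The pair moved together mainly through days 0 and 1. Over the 10 libraries Pearson's r between them on the log2(value + 1) scale was 0.86 and Spearman's rho 0.71, a description of libraries of 1 culture series. Without day 0, r was 0.70, and without days 0 and 1 it was 0.30 over 8 libraries in which both genes lie at or near 0. The ratio of MT1X to MT2A values fell from 3.79 on day 0 to 1.23 on day 1, and on day 21 it was 0.1, on values of 1 and 10.

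The promoters are shown because the family is known for its metal response elements. The 250 bases before each transcription start are those of RefSeq on GRCh38.p14, at chr16:56608334-56608583 for MT2A and chr16:56682220-56682469 for MT1X, both on the plus strand. Capitals mark matches to the core letters of the metal response element, TGCACNC or TGCGCNC, on either strand.
MT2A: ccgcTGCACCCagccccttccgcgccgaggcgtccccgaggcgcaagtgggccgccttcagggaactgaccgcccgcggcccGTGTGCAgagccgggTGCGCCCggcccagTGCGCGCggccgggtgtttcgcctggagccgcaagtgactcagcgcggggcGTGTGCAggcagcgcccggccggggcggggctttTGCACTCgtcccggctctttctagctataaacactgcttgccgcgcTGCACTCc
MT1X: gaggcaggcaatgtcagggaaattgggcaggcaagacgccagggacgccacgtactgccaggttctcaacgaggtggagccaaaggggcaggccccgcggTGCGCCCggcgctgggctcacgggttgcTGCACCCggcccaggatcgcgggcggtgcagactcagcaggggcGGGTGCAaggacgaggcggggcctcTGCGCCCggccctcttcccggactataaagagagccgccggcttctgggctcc
The MT2A promoter held 7 such matches and that of MT1X held 4, with no overlap among them. Of 35116 promoters of the same length, 24.8% held at least 1 match, 0.37% at least 4 and 0.0313% at least 7. Of the metallothioneins with no row in the table, the promoter of MT1H held 8 and those of MT1B and MT4 held 3 each. The promoter of SLC30A1, a zinc exporter, held 1 match, at bases -49 to -43 from the start. The letters TGACNNNGC of the antioxidant response element occurred in 1 place in MT2A, MT1X and SLC30A1 each, and in 10.9% of all promoters. An exact match to the glucocorticoid response element, AGAACA and TGTTCT with 3 bases between them, did not occur in these windows of the 3 genes. It did in 0.00285% of promoters, so that its absence says nothing particular about these genes, and looser or more distant matches were not sought. Matches are letters only and do not show that a factor was bound.

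**Figure D3:**
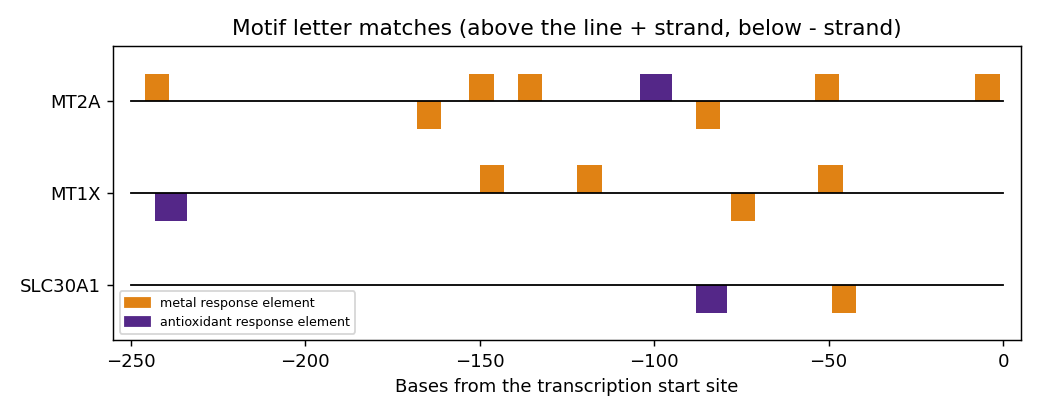
Each line is the 250 bases before the start of 1 gene, with distance from the start on the x axis, boxes above the line for matches on the plus strand and below it for the minus strand. MT2A holds 7 and MT1X 4 metal response element matches, SLC30A1 holds 1, and each of the 3 holds 1 antioxidant response element match.

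The RNA of MTF1, the factor that reads zinc at these elements, did not follow the metallothioneins. Its value was 38 on day 0, 57 on day 1, 34 on day 2 and 31 on day 3, and it lay between 38 and 57 from day 5 to day 21. Its r with the mean profile of the pair over the 10 libraries was -0.10. Activity of the MTF1 protein was not measured.

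SLC30A1 encodes the zinc exporter of the plasma membrane, and like the metallothioneins it is a known target of MTF1. It too went down under Activin A, but it came back. Its value was 131 on day 0, 48 on day 1, 12 on day 2 and 16 on day 3, then 88 on day 5 and 162 on day 7, above day 0, when the metallothioneins were listed at 0. Later values were 49, 64 and 35 on days 9, 11 and 13, and 94 on day 21. SLC30A1 was the 1 gene of the 5 zinc exporters found, of 10 listed, that was called in any of the comparisons, lower on day 2 and on day 3 than on day 0, beside 1.63% and 2.16% of all tested genes called lower. The others, SLC30A5, SLC30A6, SLC30A7 and SLC30A9, which are transporters of intracellular membranes, had day 0 values of 88, 84, 113 and 438 and day 2 values of 84, 99, 106 and 330.

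**Figure D4:**
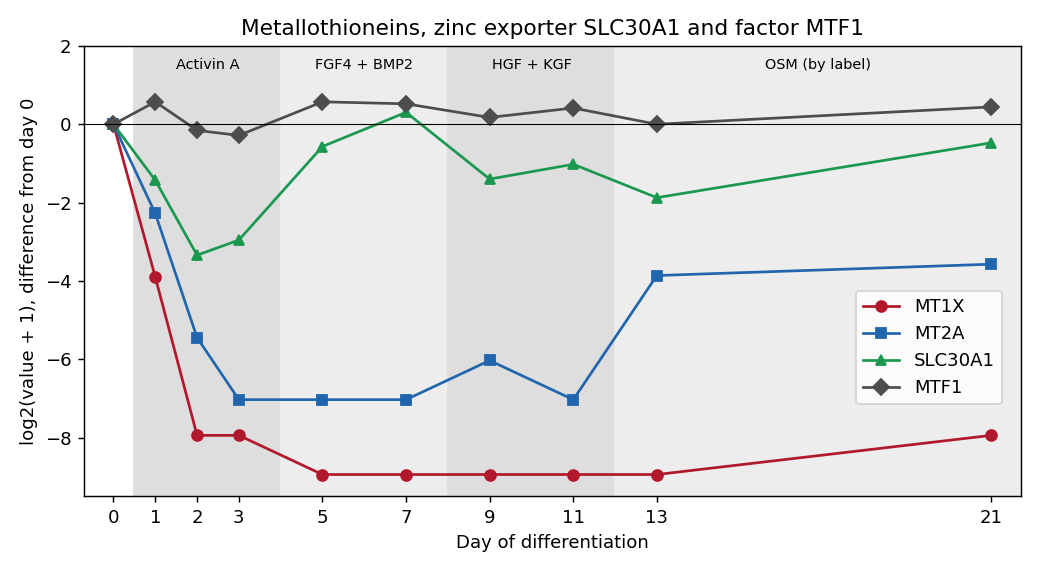
The y axis gives the log2(value + 1) difference from day 0 and the x axis the day for MT1X (circles), MT2A (squares), SLC30A1 (triangles) and MTF1 (diamonds), 1 library per point. SLC30A1 drops with the metallothioneins from 131 to 12 by day 2 and returns to 162 on day 7, while MT1X and MT2A are listed at 0 on days 5 and 7 and MTF1 stays between 31 and 57 throughout.

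Of the zinc importers of the SLC39 family, 13 of 14 were found. None of the 9 tested was called from day 0 to day 2, when 1.63% of all tested genes were called lower and 2.41% higher, so that the count does not set the importers apart from other genes. SLC39A14, which also carries iron and manganese into hepatocytes, went from 936 on day 0 to 453 on day 1 and was highest on day 11 (1185). SLC39A8 had 126 on day 0 and 431 on day 1, a difference of 1.77 that stayed short of a call, and SLC39A4, the importer of the gut, had 15 on day 0, 32 on day 2 and 122 on day 7. Among the importers, calls came at later stages. SLC39A5, an importer of liver, pancreas and gut, was listed at 0 through day 3, had 4 on day 5 and 290 on day 7, and peaked at 641 on day 13. It was called higher on day 13 than on day 3, beside 7.8% of all tested genes, and higher on day 21 than on day 0. SLC39A6 was called higher and SLC39A10 lower on day 21 than on day 0, with 132 and 634 for SLC39A6 and 567 and 104 for SLC39A10. Over that interval 11.9% of all tested genes were called higher and 11.5% lower.

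Among 8 copper genes found, of 9 listed, none of the 5 tested was called from day 0 to day 3, when 3.94% of all tested genes were called higher and 2.16% lower. ATP7B, the copper exporter of hepatocytes that is mutated in Wilson disease, had a value of 36 on day 0 and 36 on day 3, 374 on day 13 and 823 on day 21, and was called higher on day 13 than on day 3, beside 7.8% of all genes. The copper importer SLC31A1 had 221 on day 0, 118 on day 3 and 340 on days 13 and 21. COX17, a copper chaperone for cytochrome c oxidase, had a value of 56 on day 0, 82 on day 2 and 32 on day 21. Of the oxidative stress genes, 9 of 10 found and all 9 tested, none was called from day 0 to day 3, beside the same 3.94% and 2.16%. HMOX1, the heme oxygenase that can be induced together with metallothioneins by metals, had 60 on day 0, 32 on day 2 and 28 on day 3, then 336 on day 5 and 536 on day 7, and was called higher on day 13 (125) than on day 3, again beside 7.8% of all genes. NQO1, a quinone reductase, had 144 on day 0, 280 on day 2 and 78 on day 13, and was called lower on day 21 (16) than on day 13, an interval over which 1.62% of genes were called lower.

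Of the glucocorticoid-responsive genes, 7 of 11 were found. Of the 4 tested from day 0 to day 3, 1 was called higher and 0 lower, when 2.16% of all tested genes were called lower. NR3C1, the glucocorticoid receptor, had a value of 8 on day 0, 30 on day 1, 96 on day 2 and 100 on day 3, and was the gene called higher, beside 3.94% of all genes. SGK1, a kinase, had low values of 31, 18, 6 and 9 on these days and was not tested. From day 13 to day 21, 3 of the 7 were called higher and 0 lower, beside 2.28% called higher over all genes. FKBP5 went from 28 to 364, TSC22D3 from 74 to 446 and SGK1 from 53 to 590, all known as direct targets of the receptor. MT2A, also a known target, went from 8 to 10 over the same interval. FKBP5 had already stood at 168 on day 0 and 348 on day 3, close to its day 21 value. From day 3 to day 13 it was called lower, and 2 of the 7 genes were called higher. Over all genes tested, 5.6% were called lower and 7.8% higher from day 3 to day 13. Of the STAT3 and acute phase genes, 9 of 15 found and all 9 tested, 4 were called higher and 0 lower from day 13 to day 21. Over that interval 2.28% of all tested genes were called higher and 1.62% lower. OSMR, the receptor subunit for OSM, went from 32 to 171 and the fibrinogen chain FGG from 66 to 1327. Haptoglobin HP went from 4 to 74 and the protease inhibitor A2M from 120 to 4858. The other fibrinogen chains were not called and went down, FGA from 3428 to 2796 and FGB from 3868 to 3438. IL6ST, STAT3 and SOCS3 were higher on day 21 than on day 13 but short of a call. At the top of the deposited scale, the 1086 values of at least 2000 are only 63 distinct numbers. The level of A2M on day 21 and those of FGA and FGB on both days are therefore coarse. From day 0 to day 2 the median difference over tested genes was -0.09 for zinc exporters, 0.15 for importers and 0.0048 for copper genes. It was 0.51 for the oxidative stress genes, 0.48 for the 4 glucocorticoid genes and 0.57 for the 3 STAT3 and acute phase genes. Over all genes tested it was -0.0006, and for the metallothioneins -6.70, or -5.32 with 5 added before the logarithm. The contrast is a description, since the pair is in the table only through days 0 and 1 and had to be lower afterwards. It also rests on day 2 values of 1 and 2.

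In the table's own coordinates, MT2A (ENSG00000125148) lies at chr16:56642111-56643409 and MT1X (ENSG00000187193) at chr16:56716336-56718108, both on the plus strand and 72926 bases apart. The table names no build. The submitters' processing notes name hg19 and mm10, and these positions are not those of GRCh38. No other gene with a row lies between them. Of the 8 neighbouring genes described here, all with a row and within 500000 bases, 6 had a lower value on day 2 than on day 0, each by less than the metallothioneins. The differences of the 8 ran from -1.08 (CPNE2) to 0.38 (HERPUD1), with a median of -0.35 against -0.0006 over all genes tested. None of the 7 high enough to be tested was called, a count that cannot be told from the 1.63% of all genes called lower and the 2.41% called higher. The nearest on either side were BBS2, a gene of the ciliary BBSome, with values of 48 on day 0 and 24 on day 2, and NUP93, of the nuclear pore, with 355 and 280. HERPUD1, an endoplasmic reticulum stress gene, went from 46 on day 0 to 452 on day 21. GNAO1, a neuronal G protein subunit, had 78 on day 3, 12 on day 5 and 0 on day 7, with at most 21 afterwards.

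**Figure D5:**
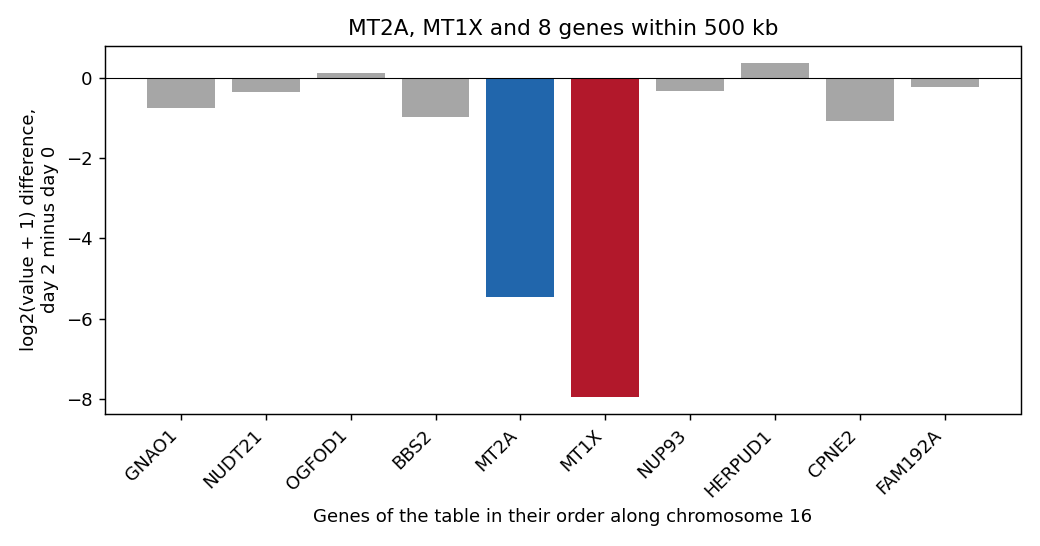
Bars give the log2(value + 1) difference between day 2 and day 0 for MT2A, MT1X and 8 genes of the table within 500 kb, in their order along chromosome 16. The neighbours lie between -1.08 and 0.38, and MT2A and MT1X reach -5.45 and -7.95.

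A row named MT1P3, the symbol of a metallothionein pseudogene, was not counted as a member. Its identifier, ENSG00000126005, belongs to MMP24OS in GENCODE release 29, and its interval spans 61292 bases of chromosome 20. It had values of 53 on day 0, 41 on day 2 and 115 on day 21, which tell nothing about the pseudogene.

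The 10 genes most like the mean profile of the pair, by Pearson's r of log2(value + 1) over the 10 libraries among 10744 genes, had r from 0.94 to 0.96. They included DENND4B, RP4-798C17.6, SYT13, CYB5RL, MAT2B, VSNL1, DARS, NFS1 and AC007390.5. All 10 were lower on day 2 than on day 0, but by less than the metallothioneins, with differences from -0.59 (NFS1) to -3.74 (VSNL1). VSNL1, a neuronal calcium sensor, had 280 on day 0, 68 on day 1, 20 on day 2 and 13 on day 21. MAT2B, the regulatory subunit of methionine adenosyltransferase, had 204 on day 0, 190 on day 1 and 87 on day 2, and DENND4B, with the highest r, had 270, 228 and 134. The order changed with the measure and with single libraries. Ranked by Spearman's rho in place of Pearson's r, 1 of the 10 genes was again among the 10 most alike. Without the day 0 library 3 were, and without the day 1 library 5. The r of SLC30A1 was 0.24.

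Marker genes were looked up for stages that the study names along the course. All 7 pluripotency markers sought were found, and POU5F1 fell from 4861 on day 0, by way of 6498 on day 1, to 1280 on day 3 and 5 on day 21. On day 2, when MT1X and MT2A had values of 1 and 2, POU5F1 was still at 2640, in the coarse top range of the scale. The other pluripotency markers went different ways from day 0 to day 2. SOX2 went from 371 to 146, DNMT3B from 3862 to 1384, NANOG from 460 to 323 and ZFP42 from 454 to 328. LIN28A had 2971 on both days, and TDGF1 went from 1044 to 2021. The values of LIN28A on both days, DNMT3B on day 0 and TDGF1 on day 2 also lie in that coarse range. The equal entries of LIN28A therefore do not show that its level was unchanged. The endoderm marker SOX17 rose from 2 on day 0 to 790 on day 3, and ALB stood at 168 on day 13 and 4866 on day 21, whereas CYP3A4 and TAT of the hepatocyte list have no row. Genes of other cells were also high at the end. COL1A1 of the stroma had 6494 and the globin HBE1 1248 on day 21, and the median log2(value + 1) of 6 stromal markers went from 3.93 on day 0 to 11.69 on day 21. Macrophage markers PTPRC (39 on day 0, 18 on day 2, 65 on day 21) and CD68 (0, 0 and 259) were the 2 of 6 with a row. In bulk RNA, fewer cells that express a gene and less of its RNA per cell cannot be told apart, and the part of these cells in the values of MT2A on days 13 and 21 was not tested.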

How the data were processed

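Total RNA of 10 cultures was made into TruSeq libraries and sequenced on a MiSeq. The authors aligned reads with Bowtie2 2.2.0 and RSEM 1.2.17 to a transcriptome they call Ensembl mm10, although the identifiers are human, normalized for GC content with EDASeq, and deposited 1 table of whole numbers, here called scores because they are not read counts. The totals of the libraries, 2330948 to 2362740, are nearly equal and do not show the depth. The study's methods state an average depth but none per library, so no counting interval is given. All 10 columns were matched to a day by name.

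Changes are differences of log2(value + 1), and a gene is called where that difference reaches 2 and its larger value reaches 50. No test was made, with 1 library per day. Members, gene lists and markers were chosen with earlier results of these data known. Named genes are the members, other rows with a metallothionein symbol, MTF1, SLC30A1, SLC39A10, NR3C1, genes of each list with the widest range, called genes of the lists, the 10 genes most like the pair, and 8 genes within 500000 bases. The last, day 0 to 1, 1 to 2 and 0 to 2, and single genes marked so, were chosen after seeing the data. So was the order by day 0 against the highest value from day 2 on. Results for a few genes are not reported here. Alternatives were other pseudocounts, scalings, filters and call sizes. Promoters were those of RefSeq (GRCh38.p14, 3 of 7 symbols matched) and transcripts those of GENCODE release 29. Code was tested on simulated data and run with Python 3.11.15, numpy 2.4.6, pandas 2.3.3, scipy 1.17.1 and matplotlib 3.10.9.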

Additional observations from a re-analysis of the deposited data

How the results depend on the processing

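Of 131 alternatives for the counts and medians of the pair and the genes most like it, 113 stayed within 1.5 times the count or within the spread between days 9 and 11, and 18 did not. A reversal could be recorded only for medians of comparisons with a called member, and none was. Many of the 113 could hardly move. The pair is low or falling, so members called higher number 0 in the main setting. Totals of the libraries were nearly equal before any scaling. With a larger value of at least 200, 1 member in place of 2 was called lower from day 0 to day 1, 2, 3 and 21, since MT2A has 130 at day 0. With no filter on low values, 2 members were called lower from day 1 to day 2 and 1 (MT2A) higher from day 3 to day 13. With 0.1 added before the logarithm, the median change of the pair was -7.38 from day 0 to day 2, -9.58 to day 3, -6.25 to day 21, and 1.89 from day 13 to day 21. With 5 added it was -2.39 from day 1 to day 2, -5.32 from day 0 to day 2, -5.56 to day 3 and -4.77 to day 21. Of the 10 genes most like the pair, 1 remained with Spearman's rho, 6 with 5 added, 3 without day 0 and 5 without day 1, the last pair chosen after seeing the data. Scaling by the median of ratios shifted the median of all tested genes by 0.19 from day 0 to day 21 and by less than 0.1 elsewhere. No paired analysis was possible because each day has 1 library. The depth of each library is not given in the sources used here, so values of 0 to 10 cannot be ranked.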
